A study of Mus musculus with 19 samples.

Results

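The Hedgehog receptors and Gli factors described here are 10 genes (Ptch1, Smo, Gli1, Gli2, Gli3, Boc, Cdon, Gas1, Hhip and Sufu) out of 39179 genes counted. They were found by symbol, each at 1 Ensembl gene, and were chosen on measured values: Ptch1 and Smo were picked because they differed between smoke and nicotine vapour, and the other 8 belong to the same pathway. Polyadenylated RNA from cerebral microvessels was sequenced in 19 libraries from male C57BL/6 mice bought at 7 weeks of age. The 5 groups, named by their titles, were room air (Room-air, 4 libraries), vapour of an electronic cigarette free of nicotine (Nic-free, 4), vapour with nicotine (Nic, 3), cigarette smoke (smoke, 4) and another set kept in room air (air, 4). By the titles, Room-air was taken as the control of the vapour groups and air as the control of smoke. No label gives the length of exposure, the age at collection, or whether a library came from 1 animal or a pool, so the p-values rest on library-to-library spread alone.

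Hedgehog ligands (Shh, Ihh and Dhh) bind Ptch1, a receptor at the primary cilium that without ligand keeps the membrane protein Smo inactive. Boc, Cdon and Gas1 are co-receptors that help the ligand to bind, and Hhip sequesters it. Active Smo releases the Gli transcription factors from Sufu. Gli1 and Gli2 act mainly as activators and Gli3 mainly as a repressor, and Ptch1, Gli1 and Hhip are themselves induced by the pathway. In the adult brain, neurons and vessel-associated astrocytes are known sources of Shh, astrocytes are known responders, and the pathway is known for its support of the blood-brain barrier.

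The upstream sequences of Ptch1 and Smo are shown because these genes had the widest spread between groups and similar orders of groups. Both traits are in part set by the way the genes were chosen. They are the 250 bases before the RefSeq start (GRCm38.p6), 5′ to 3′, at chr13:63565736-63565985 on the minus strand and chr6:29735247-29735496 on the plus strand. The RefSeq start of Ptch1 lies inside the gene as GENCODE annotates it. Capitals mark GGGCGG, the GC box (searched with its complement CCGCCC, after these windows had been seen).
Ptch1: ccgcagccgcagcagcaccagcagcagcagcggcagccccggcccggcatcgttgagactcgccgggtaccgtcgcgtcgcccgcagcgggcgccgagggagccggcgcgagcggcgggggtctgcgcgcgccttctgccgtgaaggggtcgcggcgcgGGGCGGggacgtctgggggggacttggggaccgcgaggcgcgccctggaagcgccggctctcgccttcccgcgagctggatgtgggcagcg
Smo: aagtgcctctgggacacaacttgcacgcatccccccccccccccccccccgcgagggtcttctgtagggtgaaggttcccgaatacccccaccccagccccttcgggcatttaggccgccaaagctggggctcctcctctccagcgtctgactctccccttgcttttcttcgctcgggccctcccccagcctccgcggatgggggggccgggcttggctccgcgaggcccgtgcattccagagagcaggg

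RefSeq windows of 300 bases (250 before the start and 50 after) were found for 8 of the 10 genes, all but Gli1 and Boc. The Gli recognition site GACCACCCA, searched on both strands, was in none of the 8 and in 0.253% of 32851 such windows of all genes. The GC box was in 6 of the 8 (Ptch1, Gli2, Gli3, Gas1, Hhip and Sufu), against 35.7% of all windows. The window of Smo held neither sequence. The windows of Cdon and Gli3 lie inside these genes as GENCODE annotates them. The 250 upstream bases of Gli3 and of Gas1 are all exon of other genes (Gm6556 and Gm48488). These matches describe letters in a short window only.

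The libraries held 25.3 to 30.2 M counts (M, 1000000) in Room-air, 15.2 to 19.1 M in Nic-free, 21.8 to 28.4 M in Nic, 9.76 to 13.5 M in air and 7.94 to 12.6 M in smoke. All 14 endothelial markers listed had counts in every library, and so did all 11 neuron, 10 astrocyte, 7 oligodendrocyte and 10 choroid plexus and ependymal markers. The libraries thus held RNA of vessels and of surrounding brain. In such bulk RNA, fewer cells of a type and less RNA per cell cannot be told apart. All 10 Hedgehog genes passed the filter on low counts in every comparison, with 31 (Hhip) to 988 (Ptch1) counts per library. The unit of level, CPM, is a gene's counts in each 1000000 that its library holds, given as mean ± SD over libraries. Per kilobase of annotated exon, the median level over the 19 libraries was highest for Boc (6.26 CPM per kb) and Smo (3.71), followed by Gas1 (2.84), Cdon (2.79) and Sufu (2.45). It was 1.61 for Gli1, 1.28 for Ptch1, 1.13 for Gli2, 1.04 for Gli3 and 0.51 for Hhip.

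**Figure D1:**
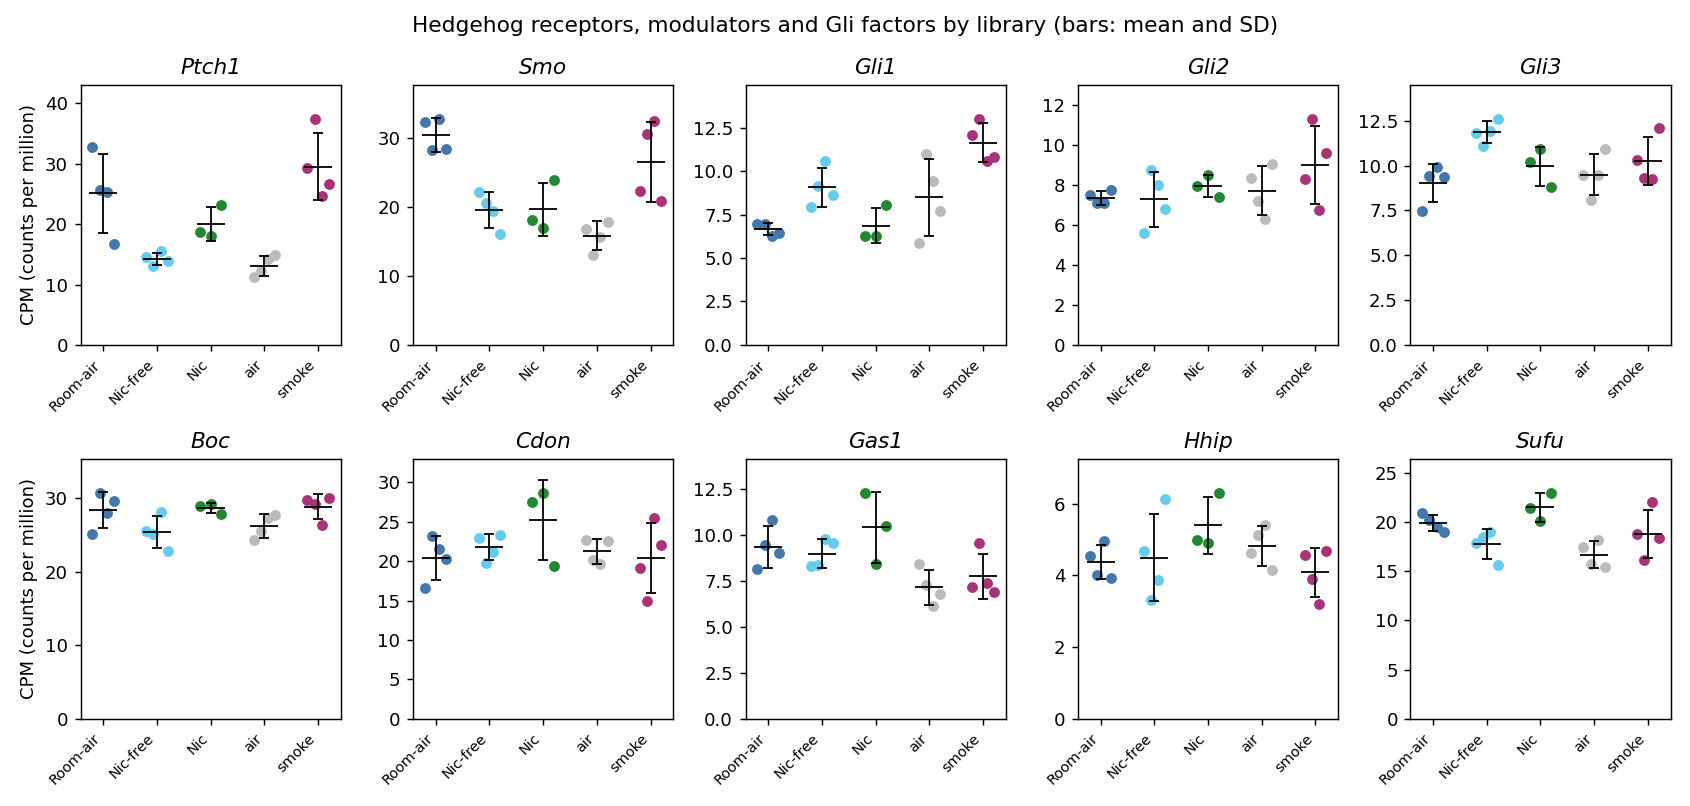
CPM of each of the 10 genes (vertical axes, from 0) by group (horizontal axes). Each point is a library, and bars give the mean and SD. Ptch1 ran from 11.2 to 37.4 CPM, with the smoke libraries above all air libraries, while Gli2 and Cdon overlapped between all groups.

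Ptch1, the receptor (ENSMUSG00000021466, GRCm38 chromosome 13, 63508328 to 63573598), was highest in smoke and lowest in the air set. Its levels were 29.3, 37.4, 24.7 and 26.6 CPM in smoke 1 to 4 and 11.2, 12.2, 14.2 and 14.8 in air 1 to 4. In the Room-air set it stood at 32.7, 25.6, 25.3 and 16.7 CPM. It stood at 14.5, 13, 15.5 and 13.9 in Nic-free and at 18.7, 18.1 and 23.2 in Nic. The smoke libraries all lay above the Nic, Nic-free and air libraries, and they overlapped with the Room-air libraries. By group mean the order was smoke (29.5 ± 5.61 CPM, n = 4), Room-air (25.1 ± 6.55, n = 4), Nic (20 ± 2.79, n = 3), Nic-free (14.2 ± 1.03, n = 4) and air (13.1 ± 1.69, n = 4). Smoke and Room-air overlapped, as did Room-air and Nic, and Nic-free and air. Nic and Nic-free did not overlap. Room-air had the widest spread, with its replicate 4 at 16.7 CPM, below every Nic library.

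Smo, the signal transducer that Ptch1 restrains (ENSMUSG00000001761, chromosome 6, 29735503 to 29761365), had its highest group mean in the Room-air set. It stood at 32.4, 28.3, 32.8 and 28.4 CPM in Room-air 1 to 4 and at 22.3, 30.6, 32.5 and 20.9 in smoke 1 to 4. In Nic-free it stood at 22.2, 20.6, 19.5 and 16.1 CPM and in Nic at 18.1, 16.9 and 24.0. In the air set it was at 16.8, 13.1, 15.7 and 17.9 CPM. The Room-air libraries lay above all Nic, Nic-free and air libraries, and smoke lay above air. By group mean the order was Room-air (30.5 ± 2.47 CPM, n = 4), smoke (26.6 ± 5.81, n = 4), Nic (19.7 ± 3.83, n = 3), Nic-free (19.6 ± 2.61, n = 4) and air (15.9 ± 2.06, n = 4). Each group in this order overlapped with the next. In smoke the 2 genes did not share their highest library, which was replicate 2 for Ptch1 and replicate 3 for Smo.

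The choice was read as resting on smoke minus air less Nic minus Room-air, although its wording does not spell out a contrast. This contrast came to a log2 difference of 1.55 ± 0.26 (SE) for Ptch1 and 1.42 ± 0.23 for Smo, where 5.59% of all genes tested passed an edgeR adjusted p of 0.05. The remaining 8 genes lay between −0.50 (Hhip) and 0.46 (Gli1), and Gli1 was nearest to the 2 chosen genes. Smoke against Nic directly, with no control set, gave smaller values of 0.65 ± 0.19 for Ptch1 and 0.52 ± 0.17 for Smo, and 0.84 ± 0.18 for Gli1. Read in this way, these values chose the genes, so they carry no test. High values in smoke and Room-air and low values in Nic and air all add to such a contrast. Every comparison below shares libraries with it, so Ptch1 and Smo are given with log2 fold changes and SE alone.

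Smoke minus air gave a log2 fold change of 1.19 ± 0.16 for Ptch1 and 0.76 ± 0.17 for Smo. Nic minus Room-air gave −0.35 ± 0.17 and −0.65 ± 0.14, and Nic-free minus Room-air gave −0.77 ± 0.16 and −0.58 ± 0.13. Between Nic and Nic-free, Ptch1 differed by 0.42 ± 0.17 and Smo by −0.06 ± 0.14. The 2 sets kept in room air also differed, since air minus Room-air gave −0.90 ± 0.18 for Ptch1 and −0.90 ± 0.16 for Smo. These values came from another fit, and the Ptch1 value lay within 1 SE of that for Nic-free. Low values in air and high values in Room-air both add to the choosing contrast, so the sizes of these differences cannot be ranked. With the Room-air set as control, smoke gave 0.28 for Ptch1 and −0.15 for Smo. With the air set as control, Nic-free gave 0.12 and 0.30, and Nic gave 0.53 and 0.23.

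**Figure D2:**
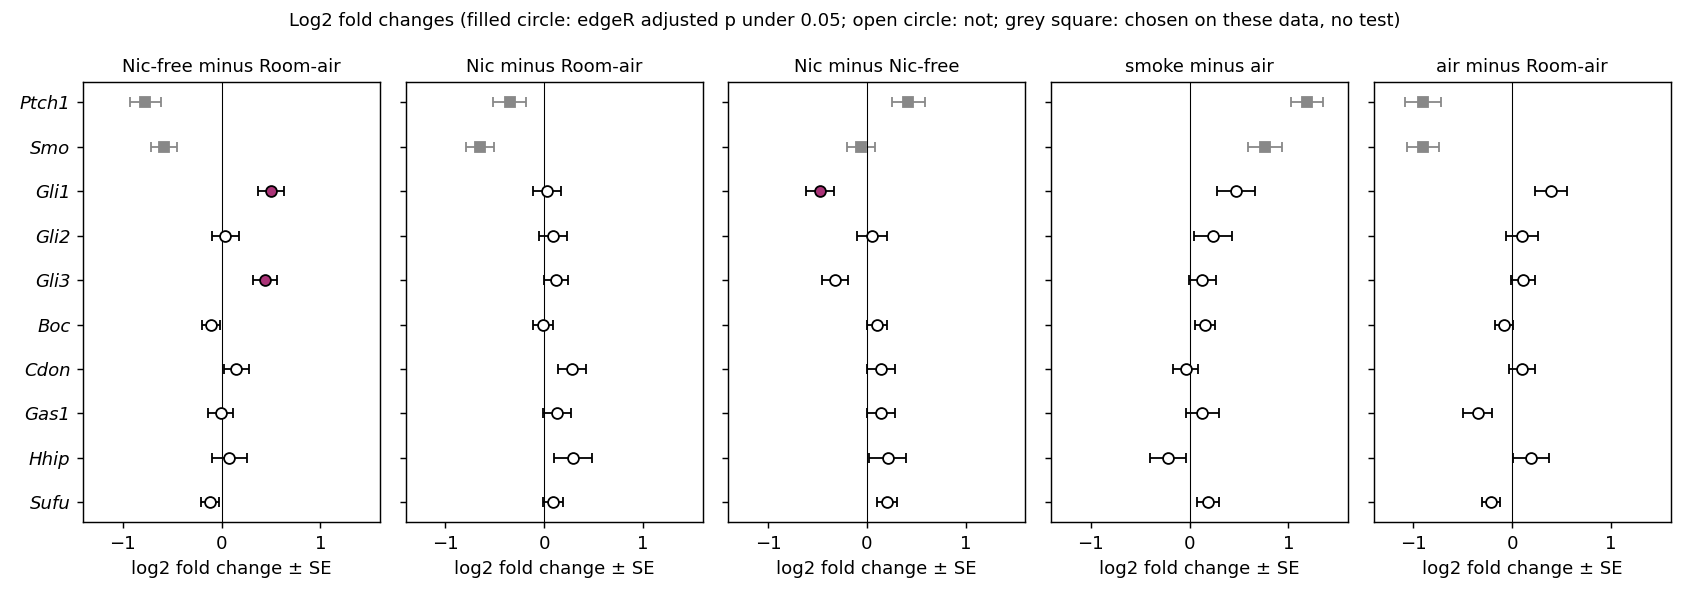
Log2 fold change ± SE (horizontal axes) of the 10 genes (rows) in 5 comparisons (panels) from the edgeR fits. Filled circles passed an adjusted p of 0.05, open circles did not, and grey squares are Ptch1 and Smo, which have no test. Gli1 at 0.50 and Gli3 at 0.44 in the first panel and Gli1 at −0.47 in the third are the filled circles.

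Other measures of the libraries moved with Ptch1 and Smo in some comparisons and not in others. The 14 endothelial markers summed to 2860 to 3920 CPM in Room-air, 2000 to 3030 in Nic-free, 2960 to 5270 in Nic, 1330 to 2390 in air and 2380 to 3240 in smoke. Of them 10 fell and none rose in air minus Room-air, 5 fell and none rose in Nic-free minus Room-air, and 3 rose and none fell in smoke minus air. In Nic minus Room-air, where Ptch1 and Smo had negative values, none of the 14 passed and their median log2 fold change was 0.34. In Nic minus Nic-free 9 of the 14 rose and none fell (median 0.84), beside 0.42 for Ptch1 and −0.06 for Smo. Of 8 pericyte markers 5 fell in air minus Room-air, 1 fell in Nic-free minus Room-air, none passed in smoke minus air, and 4 rose in Nic minus Nic-free. Of 8 fibroblast and meningeal markers 6 fell in air minus Room-air (median −0.65), 1 fell in Nic-free minus Room-air, none passed in smoke minus air, and 1 rose in Nic minus Nic-free. No marker of these lists was at 0. The 10 choroid plexus and ependymal markers, none at 0, summed to 17500 to 24800 CPM in Room-air, 872 to 18400 in Nic-free, 2090 to 7070 in Nic, 3700 to 24500 in air and 1760 to 26500 in smoke. Their median log2 fold change was −1.4 in Nic-free minus Room-air, where 2 fell, and none passed in the other comparisons. The median was −1.74 in Nic minus Room-air, −0.08 in Nic minus Nic-free, 0.38 in smoke minus air and −1.01 in air minus Room-air. In the contrast taken to have chosen the genes it was 1.92, against 0.18 for endothelial, 0.08 for pericyte and 0.33 for fibroblast markers. Reads that the submitters' counting gave to no feature were 28.7 to 33.4% in Room-air and 28.9 to 33.2% in smoke, the groups where Ptch1 was high. They were 33 to 38.4% in Nic, 33.6 to 37.5% in air and 38.9 to 45.2% in Nic-free. The part of these measures in the levels of Ptch1 and Smo was not tested.

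Among the transcription factors, Gli1 (ENSMUSG00000025407, chromosome 10, 127329882 to 127341974), an activator and a textbook readout of the pathway, went the opposite way to Ptch1 in Nic-free minus Room-air. It stood at 6.96, 6.94, 6.25 and 6.45 CPM in Room-air 1 to 4 and at 7.96, 9.14, 10.6 and 8.62 in Nic-free 1 to 4, so the groups did not overlap. Gli1 rose by a log2 fold change of 0.50 ± 0.13 (edgeR adjusted p 0.0136) in Nic-free minus Room-air. Its levels in Nic were 6.28, 6.27 and 8.04 CPM, close to Room-air (log2 0.03 ± 0.14, adjusted p 0.931), and it fell in Nic minus Nic-free (−0.47 ± 0.14, adjusted p 0.0225). The latter call was lost without Nic-free 2, Nic-free 3, Nic 1 or Nic 2 (adjusted p 0.0568 to 0.115, and 0.00652 to 0.115 over all 13 alternatives).

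In the smoke group Gli1 stood at 12.1, 13, 10.6 and 10.8 CPM, and in the air set at 5.86, 11, 9.41 and 7.73. Air 2 lay above smoke 3 and smoke 4, and the other air libraries lay below all of smoke. Smoke minus air did not pass (log2 0.47 ± 0.19, edgeR adjusted p 0.203). With the Room-air set as control Gli1 was higher in smoke (0.85, adjusted p 0.00613, with 0.00613 to 0.381 over all alternatives). With the air set as control it no longer passed in Nic-free (0.1, adjusted p 0.782, with 0.00645 to 0.782 over all alternatives). Between the air sets Gli1 differed by 0.39 ± 0.16 without passing (adjusted p 0.0889), and it passed without air 1 (0.56, adjusted p 0.0133, with 0.0133 to 0.309 over all alternatives).

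Gli3, the main repressor (ENSMUSG00000021318, chromosome 13, 15463235 to 15730026), also rose in nicotine-free vapour. It stood at 7.49, 9.39, 9.93 and 9.34 CPM in Room-air and at 11.8, 11.1, 11.9 and 12.6 in Nic-free, with no overlap. The log2 fold change was 0.44 ± 0.12 (edgeR adjusted p 0.0159). Nic, at 10.2, 10.9 and 8.78 CPM, lay below every Nic-free library, yet Nic minus Nic-free did not pass (−0.32 ± 0.13, adjusted p 0.0749). Gli3 was at 9.50 ± 1.16 CPM in air and 10.3 ± 1.34 in smoke (SD, n = 4 each; log2 0.13 ± 0.14, adjusted p 0.662). With the air set as control its rise in Nic-free no longer passed (0.32, adjusted p 0.145, with 0.00684 to 0.145 over all alternatives).

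Gli2 (ENSMUSG00000048402, chromosome 1, 118834132 to 119053619), the other activator, overlapped between all groups, with group means from 7.27 ± 1.38 CPM in Nic-free to 8.99 ± 1.96 in smoke (SD, n = 4 each). Its log2 fold changes were 0.04 to 0.24 in the 5 comparisons, and none passed (edgeR adjusted p 0.529 to 0.871). The 95% interval in Nic-free minus Room-air was −0.25 to 0.33, and in smoke minus air it was −0.18 to 0.66.

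Markers of astrocytes, cells that respond to Hedgehog ligand, moved with Gli1 and Gli3 in Nic-free minus Room-air and in Nic minus Nic-free. The 10 astrocyte markers, none at 0, summed to 3660 to 4500 CPM in Room-air, 5100 to 6030 in Nic-free, 4140 to 4160 in Nic, 4280 to 5350 in air and 4090 to 7990 in smoke. Of them 6 rose and 1 fell in Nic-free minus Room-air, and 7 fell and none rose in Nic minus Nic-free. In smoke minus air none passed, in air minus Room-air 1 rose and 1 fell, and in Nic minus Room-air 1 fell. Markers of some other brain cells moved the same way in Nic-free minus Room-air, where 6 of 11 neuron, 4 of 7 oligodendrocyte and 5 of 8 microglia markers rose and none fell. In Nic minus Nic-free 5 of 11 neuron, 5 of 7 oligodendrocyte and 2 of 8 microglia markers fell and none rose. The 6 oligodendrocyte precursor markers went otherwise: none rose and 1 fell in Nic-free minus Room-air, and 1 rose and 2 fell in Nic minus Nic-free. The part of these cells in the changes of Gli1 and Gli3 was not tested. On the opposite strand, 62 exon bases of Gli1 overlap Arhgap9 and 265 overlap Gm47200, which is not among the genes counted. For Gli3, 188 bases overlap Gm6556. Whether counting used the strand is not given in the sources used here, so reads from these stretches cannot be assigned to 1 gene.

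Of the 8 genes with a test, Gli1 and Gli3 were thus the 2 that passed in Nic-free minus Room-air, where 21.8% of all genes tested passed. In Nic minus Nic-free 1 of 8 passed, against 24.8% of all genes. Both shares are near their background or below it. In Nic minus Room-air none of the 8 passed, against 3.89% of all genes. In smoke minus air none passed, against 1.6%, and in air minus Room-air none passed, against 22.7%. For these last 3 comparisons edgeR gave 0, 1 and 3 of the 8 genes an unadjusted p under 0.05, and DESeq2 called 0 in each. The median log2 fold change of the 8 genes was 0.06, 0.10, 0.12, 0.14 and 0.10 in Nic-free minus Room-air, Nic minus Room-air, Nic minus Nic-free, smoke minus air and air minus Room-air. Over all genes tested it was 0.00, 0.03, 0.02, 0.02 and 0.00.

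The ratio of Ptch1 to Gli1 counts, which does not depend on how a library is scaled, was looked at after the values were seen and has no test. Ptch1 is taken to have been chosen on a contrast to which low values in air and Nic and high values in Room-air and smoke add. The place of the air, Nic, Room-air and smoke libraries in this ratio is thus in part set by that choice. So is any gap between Nic-free and those groups. The Room-air libraries had ratios of 4.70, 3.69, 4.04 and 2.59 (replicates 1 to 4). The ratio was 2.97, 2.89 and 2.89 in Nic 1 to 3, and 2.42, 2.88, 2.33 and 2.46 in smoke 1 to 4. It was 1.82, 1.42, 1.47 and 1.61 in Nic-free and 1.91, 1.11, 1.5 and 1.91 in air. In this ratio every Nic-free and air library lay below every library of the other groups. Other ratios were computed too, and in them these groups overlapped. Ptch1 to Boc was 0.564 to 1.3 in Room-air and 0.517 to 0.61 in Nic-free. Ptch1 to Smo was 0.589 to 1.01 in Room-air, 0.633 to 0.865 in Nic-free and 0.665 to 0.93 in air. In Nic-free the low ratio of Ptch1 to Gli1 came with less Ptch1 and more Gli1 than in Room-air. In smoke both genes were at their highest group means. The unexposed air set had the same signs against Room-air, at log2 −0.90 for Ptch1 and 0.39 for Gli1 (edgeR adjusted p 0.0889 for Gli1). With the air set as control, Nic-free gave 0.12 for Ptch1 and 0.1 for Gli1.

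**Figure D3:**
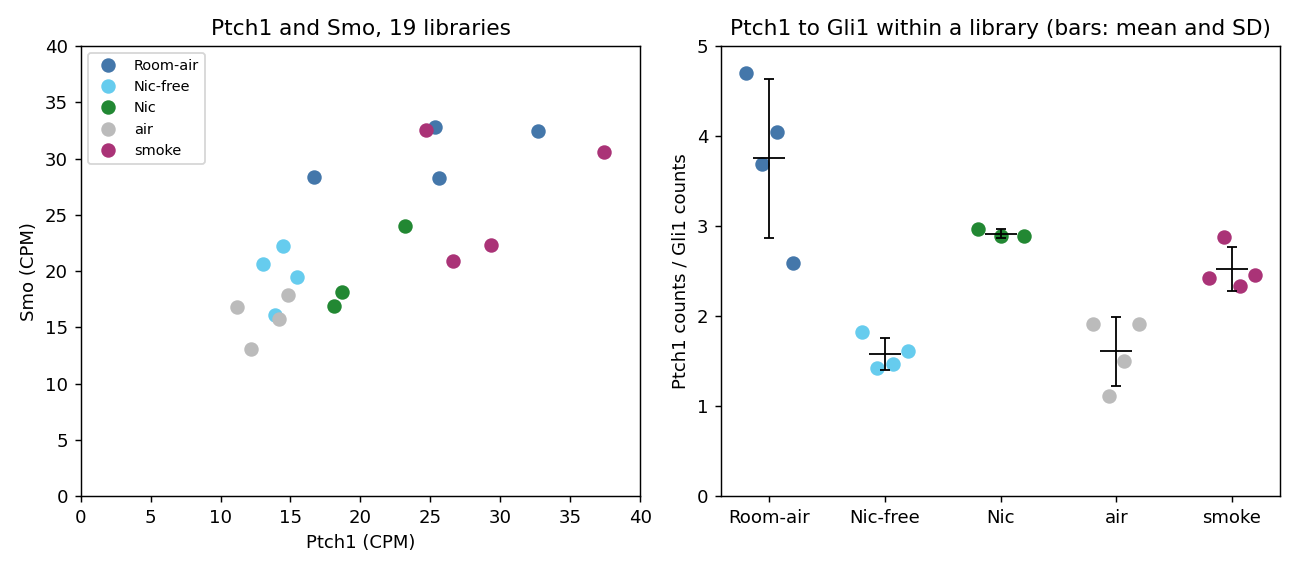
Left, Smo against Ptch1 in CPM, each point a library coloured by group. Right, the ratio of Ptch1 counts to Gli1 counts within each library by group, with mean and SD. Air and Nic-free libraries lie at the lower left of the first panel and at ratios of 1.11 to 1.91 in the second, and Room-air libraries reach a ratio of 4.70.

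Among the co-receptors, Boc (ENSMUSG00000022687, chromosome 16, 44485049 to 44558897) had the smallest ratio of highest to lowest group mean (1.14, against 1.24 for Cdon and 1.46 for Gas1), from 25.4 ± 2.19 CPM in Nic-free to 28.9 ± 1.71 in smoke (SD, n = 4 each). Its log2 fold changes ran from −0.11 to 0.16, with 95% intervals within −0.31 to 0.37, and none passed (edgeR adjusted p 0.415 to 0.971). Cdon (ENSMUSG00000038119, chromosome 9, 35421128 to 35507652) overlapped between all groups. It was highest in Nic, at 27.5, 28.7 and 19.4 CPM, against 16.6, 23.2, 21.5 and 20.3 in Room-air. Nic minus Room-air did not pass for Cdon (log2 0.28 ± 0.14, adjusted p 0.234) but passed without Nic 3, the library at 19.4 CPM (0.43, adjusted p 0.0312, with 0.0312 to 0.589 over all alternatives).

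Gas1, a co-receptor anchored to the membrane by a lipid (ENSMUSG00000052957, chromosome 13, 60174405 to 60177365), had its lowest group means in air and smoke, the 2 sets with the fewest counts. It stood at 8.40, 7.27, 6.15 and 6.79 CPM in air and 7.16, 9.57, 7.38 and 6.90 in smoke, against 8.12, 9.45, 10.8 and 9 in Room-air. Air minus Room-air was −0.35 ± 0.15 on the log2 scale and did not pass (edgeR adjusted p 0.0896). Smoke minus air gave 0.13 ± 0.17 (adjusted p 0.714), and Nic-free minus Room-air gave −0.01 ± 0.13 (0.974). In Nic, Gas1 was at 12.3, 8.41 and 10.5 CPM, and of 14 alternatives it passed with the air set as control alone (log2 0.46, adjusted p 0.0326, with 0.0326 to 0.988 over all). It overlaps Gm48488 on the opposite strand by 589 exon bases, and Hhip overlaps Gm27820 by 175, so their counts are uncertain in the same way as those of Gli1 and Gli3.

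Hhip, the ligand trap and pathway target (ENSMUSG00000064325, chromosome 8, 79965851 to 80058006), was the lowest of the 10 genes per length. Its group means were 4.36 ± 0.472 CPM in Room-air, 4.49 ± 1.22 in Nic-free, 4.83 ± 0.556 in air, 4.09 ± 0.689 in smoke (SD, n = 4 each) and 5.40 ± 0.789 in Nic (n = 3). In smoke minus air Hhip gave a log2 fold change of −0.22 ± 0.18 (edgeR adjusted p 0.544), while its fellow targets Ptch1 and Gli1 had positive values. The 95% interval of the Hhip value was −0.62 to 0.18.

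Sufu, the cytoplasmic inhibitor of Gli proteins (ENSMUSG00000025231, chromosome 19, 46396896 to 46488804), stood at 19.9 ± 0.848 CPM in Room-air, 17.7 ± 1.5 in Nic-free, 16.7 ± 1.39 in air and 18.8 ± 2.44 in smoke (SD, n = 4 each), and at 21.5 ± 1.42 in Nic (n = 3). In CPM, all Room-air libraries of Sufu lay above all air libraries, while Room-air 4 and Nic-free 3 both stood at 19 after rounding. The differences were small and did not pass, at a log2 fold change of −0.12 ± 0.09 for Nic-free minus Room-air (edgeR adjusted p 0.395) and −0.21 ± 0.09 for air minus Room-air (0.106). With the air set as control, Sufu passed in Nic (0.28, adjusted p 0.042, with 0.042 to 0.878 over all alternatives).

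The ligands were at low levels, and none passed in any comparison that tested it. Shh was at 3.02 to 5.37 CPM over the 19 libraries, Dhh at 0.573 to 2.79 and Ihh at 0.197 to 1.34, and Ihh and Dhh fell under the filter in smoke minus air. Shh differed by 0.01 ± 0.18 on the log2 scale in Nic-free minus Room-air (edgeR adjusted p 0.982) and by −0.02 ± 0.19 in smoke minus air (0.974).

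A list of 64 further pathway genes covered ligand release, surface modulators, ciliary and Smoothened relay genes, Gli kinases and degradation, and textbook targets. In Nic-free minus Room-air 4 of the 62 tested rose and 5 fell, with a median log2 fold change of −0.06. Stk36, a kinase of motile cilia and Gli regulation, fell by 0.81 ± 0.10 on the log2 scale (edgeR adjusted p 0.000361), and Gpr161, a ciliary receptor that restrains the pathway, fell by 0.89 ± 0.17 (0.00349). Dyrk2, a kinase that marks Gli2 for degradation, fell by 0.84 ± 0.15 (0.00234), and Scube3, of a family of secreted proteins that includes carriers of the ligand, fell by 1.01 ± 0.21 (0.00522). Nkx2-2, a target in neural progenitors and a gene of the oligodendrocyte lineage, rose (0.82 ± 0.18, 0.00677), and so did Spop, an adaptor for Gli degradation (0.36 ± 0.10, 0.0166). At 9 of 62, the list lay below the 21.8% of all genes that passed. With the air set as control none of these 6 named genes passed, and Dyrk2 turned to 0.14 (adjusted p 0.74, with 2.89e-05 to 0.74 over all alternatives). Spop was also lost without Room-air 2 (adjusted p 0.0548) and without Nic-free 2 (0.0647), and Scube3 in the fit of all 19 libraries (0.0524). In the same comparison 2 of the 10 choroid plexus and ependymal markers fell (median log2 −1.4). This list mixes markers of choroid plexus with markers of ependymal cells, which have motile cilia. In Nic minus Room-air none of these markers passed (median −1.74), and Stk36 gave −0.2 (edgeR adjusted p 0.275). In Nic minus Nic-free none passed (median −0.08), and Stk36 gave 0.61. The part of such cells in the values of Stk36 and the other ciliary genes was not tested.

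In Nic minus Room-air 2 of 62 passed: Mycn, a proliferation target, rose from 4.97 ± 0.512 CPM (SD, n = 4) to 8.58 ± 1.71 (n = 3; log2 0.76 ± 0.16, edgeR adjusted p 0.0283), and Scube3 fell by 0.88 ± 0.22 (0.0477). Both calls were lost without any 1 of the Room-air libraries, without Nic 1 and with the air set as control (adjusted p over all alternatives 0.00208 to 0.209 for Mycn and 0.00214 to 0.965 for Scube3). Scube3 was also lost with no filter on low counts (adjusted p 0.0921), without Nic 2 (0.0686) and in the fit of all 19 libraries (0.177). Nic minus Nic-free had 14 higher and 6 lower of 62, with a median of 0.12. Stk36 (log2 0.61 ± 0.11, adjusted p 0.0017), the ciliary gene Iqce (0.50 ± 0.10, 0.00258), Numb (0.40 ± 0.09, 0.00586) and Lrp2, a large endocytic receptor (1.14 ± 0.26, 0.00644), were higher. Spop (−0.49 ± 0.10, 0.00414) and Grk2, a kinase of Smo (−0.45 ± 0.10, 0.00607), were lower. All 6 calls held in the 13 alternatives run. The share of 20 of 62 compares with 24.8% of all genes.

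In smoke minus air none of 60 further genes passed with edgeR, 12 had an unadjusted p under 0.05, and DESeq2 called 1, Ccnd2, a cyclin named here after its value was seen. In air minus Room-air 6 of 62 fell and none rose, against 22.7% of all genes. They were Dyrk2 (log2 −0.99 ± 0.19, edgeR adjusted p 0.00124), the glypicans Gpc3 (−0.90 ± 0.18, 0.0023) and Gpc4 (−0.71 ± 0.16, 0.00506), Csnk1d (−0.29 ± 0.08, 0.018), Dync2h1, a motor of ciliary transport (−0.33 ± 0.11, 0.0366), and Foxf2, a transcription factor of brain pericytes (−0.80 ± 0.26, 0.038). Dync2h1 and Foxf2 were each lost in 7 of 13 alternatives (adjusted p up to 0.114 and 0.116), Csnk1d was lost without Room-air 2 (0.0554) and without air 2 (0.0743), and 5 of 8 pericyte markers fell in the same comparison. Dyrk2 fell both there and in Nic-free minus Room-air, comparisons that share the Room-air libraries.

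Over the 19 libraries, log2 CPM of Ptch1 and Smo had a Pearson r of 0.76, and the deviations from group means an r of 0.44. Both genes are taken to have been chosen on the same contrast of groups, which favours a high r over all libraries. Ptch1 and Gli1 had 0.29 and 0.50, and Ptch1 and Cdon −0.46 and −0.62. Among 12020 genes at a mean of at least 5 CPM, those most like Ptch1 were Atp6v0a2, Mark4, Gpam, Ndst1 and Fam120c, with r of 0.88 to 0.90 and 0.56 to 0.79 for deviations from group means. Those most like Smo were Sft2d2, Mapkapk2, Itgb5, Sgsh and Fkbp9, with r of 0.92 to 0.95 and 0.83 to 0.88. No Hedgehog gene was among these 10. The points of each correlation share library, depth and tissue composition, and the values describe these libraries.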

How the data were processed

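STAR, HTSeq and the build mm10 are named in the submitters' processing notes, with no role given. Versions, annotation and strand setting are not given in the sources used here. Libraries were strand-specific single reads of polyA RNA, per the labels. The values the authors deposited are raw counts, whole numbers for 39179 Ensembl genes per library, beside 5 summary lines kept out of totals and tests. Symbols were found for 37607 genes. Positions and exon lengths are from GENCODE M21 (GRCm38), and sequences from RefSeq (GRCm38.p6).

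edgeR 4.0.16 in R 4.3.3 was used with TMM scaling (factors 0.9157 to 1.065), filterByExpr, glmQLFit with robust estimation and two-sided glmQLFTest, and Benjamini-Hochberg adjustment over all genes tested at 0.05. The vapour comparisons came from a fit of 11 libraries, smoke minus air from 8, and air minus Room-air and the choosing contrast from 19. SE is the absolute log2 fold change over the root of the F statistic. The fits were tested on simulated data. Alternatives were DESeq2 1.42.0, other scaling, no filter, a replicate block, other fitted sets, each library left out, and the exchanged control set.

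The genes, lists and tests were chosen with earlier results of these data known. All 10 genes are named. Of the further pathway genes, those named passed in smoke minus air or Nic minus Room-air, or had up to 6 of the smallest adjusted p elsewhere, and the rule also names the ligands Shh, Ihh and Dhh. Ccnd2 falls outside it. Genes most like Ptch1 and Smo are the 5 with the highest r of log2 CPM (prior count 2). Ptch1 and Smo were to be counted among the genes called. They were left out of the counts and given no test, since each comparison shares libraries with the contrast on which they are taken to have been chosen. No 2 libraries of a group agreed within sampling noise (chi-square per degree of freedom 8.41 to 60.3).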

Additional observations from a re-analysis of the deposited data

Results flagged for a closer look

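The smoke effect and the nicotine vapour effect, each against its own air set, differed for Ptch1 by 1.55 ± 0.26 (SE) and for Smo by 1.42 ± 0.23 on the log2 scale. This difference between groups is the contrast on which both genes are taken to have been chosen, so it is a description with no test. Smoke against Nic directly gave 0.65 and 0.52.

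In the 40 sets of 4 libraries (10 genes in 4 groups) no library lay far enough from the other 3 to stand out by Dixon's criterion, where chance would give about 1 in 20.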

How the results depend on the processing

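The exchange of control sets changed signs and calls. With the air set as control, Nic-free called 699 genes (3753 with Room-air) and 0 of the 8 Hedgehog genes with a test. The log2 values of Ptch1 (0.12), Smo (0.3), Gli2 (−0.08), Gas1 (0.33), Hhip (−0.11), Sufu (0.09) and Dyrk2 (0.14) then changed sign. Nic called 4961 genes (670 with Room-air) and 2 of the 8, with changed signs for Smo (0.23), Gli1 (−0.38), Gli2 (−0.04), Gli3 (−0.02) and Boc (0.04). Ptch1 there went from −0.35 to 0.53. With Room-air as control, smoke called 1027 genes (244 with air) and 1 of the 8, with changed signs for Smo (−0.15), Cdon (0.05), Gas1 (−0.23) and Sufu (−0.03). The cause was not tested.

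Among tools and filters, DESeq2 called 1645 genes in Nic minus Room-air, 924 in smoke minus air and 1754 in the choosing contrast (925 with edgeR), and 1 fit of all 19 libraries called 348 and 519 in the first 2. No filter on low counts gave 466 in smoke minus air. Only the groups compared gave 351 in the choosing contrast, and a value of −0.01 for Gli1 in Nic minus Room-air. None of these settings, nor RLE scaling, changed how many of the 8 genes were called.

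Samples sharing a replicate number did not deviate together (r −0.37 to 0.49 over 5000 genes), so the numbers were not taken as pairing. With a replicate block, genes called were 3274 in Nic-free minus Room-air, 472 in Nic minus Room-air, 3418 in Nic minus Nic-free, 5 in smoke minus air, 3487 in air minus Room-air and 777 in the choosing contrast. Gli1 in Nic minus Room-air became 0, and of the Hedgehog and pathway genes named Dync2h1 alone lost its call.

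Leaving out 1 library gave 2186 to 3534 genes in Nic-free minus Room-air, 0 to 2956 in Nic minus Room-air (0 without Room-air 2 or Nic 1, 2956 without Nic 3), 2401 to 4679 in Nic minus Nic-free, 1 to 192 in smoke minus air (1 without smoke 1), 2415 to 3496 in air minus Room-air and 13 to 2476 in the choosing contrast (13 without Nic 1, 2476 without Nic 3). Of the 8 genes, 0 to 1 were called in Nic minus Room-air, in Nic minus Nic-free and in air minus Room-air. Small values changed sign: in Nic-free minus Room-air Gas1 ran from −0.08 to 0.06, Gli2 from −0.07 to 0.14 and Hhip from −0.09 to 0.2. In Nic minus Room-air Gli1 ran from −0.11 to 0.09 and Boc from −0.07 to 0.03, in Nic minus Nic-free Gli2 ran from −0.05 to 0.16, and in smoke minus air Cdon ran from −0.15 to 0.04 and Gas1 from −0.02 to 0.2. The rises of Gli1 and Gli3 in Nic-free minus Room-air held in 14 of 15 alternatives each, all but the air set as control. The alternatives for further pathway genes were chosen after seeing the data. Of Shh, Ihh and Dhh, counts as low as 24, 3 and 6 in a library limit what differences could be detected.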
